A study of Mus musculus with 6 samples.

Results

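The miR-26 family has 3 hairpins in the mouse, Mir26a-1, Mir26a-2 and Mir26b, of the 1174 miRNA hairpins searched here. Its reads were collected by sequence: a small RNA read of 18 nt or more was counted when it matched a hairpin exactly, apart from up to 3 unmatched bases at its 3′ end, and was assigned to the 5′ arm (5p) or the 3′ arm (3p) of that hairpin. The 5p product of Mir26a-1 and Mir26a-2 is the same RNA, so the family gave 5 countable arms of the 964 arms with reads: miR-26a-5p, miR-26b-5p, miR-26a-1-3p, miR-26a-2-3p and miR-26b-3p.

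The reads came from bone marrow monocytes/macrophages (BMMs) of wild-type C57BL/6 mice, cultured in vitro. The 3 control samples received PBS, and the 3 LPS samples received 5 pg/ml lipopolysaccharide (LPS), a glycolipid of Gram-negative bacteria, for 4 h. The labels name DMEM as the medium and the study's methods name RPMI, and pooling of mice is not stated. For its mouse work in general the study names males aged 7 to 10 weeks at the start. Nothing in the labels says whether the replicates came from separate mice or cultures, so the p-values measure the spread between these samples, which may be technical. Each sample is listed as distinct read sequences with raw counts, 2201520 to 17691405 reads in all and 1496303 to 10913216 reads on miRNA hairpins. LPS replicate 2 stood apart from the other 5 samples. It was the deepest library, and 18.6% of its distinct sequences were seen only once, against 67.1% to 74.6% elsewhere, so differences between the groups that rest on it are also given without it. The abundant miRNAs of myeloid cells (miR-223-3p, both miR-142 arms and miR-21a-5p) together held 156990 to 199015 reads per 1000000 hairpin reads (RPM) in every sample. Most of this was miR-21a-5p, at 122998 to 164575 RPM, so the sum mainly gives the level of that miRNA. Of 13 markers of other cell types, 10 had reads, and their sum was 84.6 to 110 RPM in the control samples, 86.6 in LPS replicate 1, 97.6 in LPS replicate 3 and 211 in LPS replicate 2. The 4 epithelial markers held most of it, at 63.0 to 79.5 RPM in the other 5 samples and 152 in LPS replicate 2, while miR-1a-3p, miR-124-3p and miR-144-3p had 0 reads. The part of those other cells in the values of LPS replicate 2 was not tested.

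A miRNA is cut from a hairpin by Drosha and Dicer, is loaded into an Argonaute protein and pairs with messenger RNAs mainly through its seed, bases 2 to 8 from the 5′ end. The miR-26 genes lie in introns of the Ctdsp genes, which encode small phosphatases of the RNA polymerase II C-terminal domain, and the mature miRNA is known to lower the histone methyltransferase Ezh2 in muscle and tumour cells and the cytokine Il6 in other cells. The 3′ end of miR-26a is also a known substrate of Tut4, a terminal uridylyltransferase that adds U. LPS signals through Toll-like receptor 4 and is known to change several miRNAs of macrophages, and the samples compare the family with and without it.

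All 3 hairpins lie on the plus strand of GRCm38. Mir26a-1 is at chr9:119031796-119031885 in intron 5 of Ctdspl. Mir26a-2 is at chr10:126995530-126995613 in intron 5 of Ctdsp2, and 2 other annotated Ctdsp2 transcripts have an exon over it. Mir26b is at chr1:74394310-74394394 in intron 4 of Ctdsp1. Reads from a hairpin and from its host transcript could not be told apart by sequence. Reads were counted from 18 nt upward, with no upper limit on length below the longest deposited read of 40 nt.

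The 5 mature RNAs are shown here because the family is told apart by single bases. They are the RefSeq sequences (GRCm38.p6), 5′ to 3′, with the seed in capitals:
miR-26a-5p: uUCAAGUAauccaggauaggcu
miR-26b-5p: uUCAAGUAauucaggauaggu
miR-26a-1-3p: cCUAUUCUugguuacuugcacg
miR-26a-2-3p: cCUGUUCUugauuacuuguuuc
miR-26b-3p: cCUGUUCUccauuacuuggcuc

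The 5p arms share the seed UCAAGUA, which no other of the 964 arms carried in its most abundant read. The 3p arms fall into 2 seeds. CUGUUCU is shared by miR-26a-2-3p and miR-26b-3p, and also by Mir6922-3p and Mir6932-3p, which had 12 and 6 reads over all samples. CUAUUCU belonged to miR-26a-1-3p alone. Over their 22 positions, miR-26a-2-3p and miR-26b-3p are identical at 18, miR-26a-1-3p and miR-26a-2-3p at 16, and miR-26a-1-3p and miR-26b-3p at 14.

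Reads of the 5p arms that the results turn on were these, with the bases from position 21 onward in capitals, since the ends are where the reads of the family differ:
miR-26a-5p, 22-nt form: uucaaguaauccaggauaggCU
miR-26a-5p, 21-nt form: uucaaguaauccaggauaggC
miR-26a-5p, 20-nt form: uucaaguaauccaggauagg
miR-26a-5p, U-tailed: uucaaguaauccaggauaggCUU
miR-26a-5p, A-tailed: uucaaguaauccaggauaggCUA
miR-26b-5p, 22-nt form: uucaaguaauucaggauaggUU
miR-26b-5p, RefSeq form: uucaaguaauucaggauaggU
miR-26b-5p, U-tailed: uucaaguaauucaggauaggUUU
miR-26b-5p, A-tailed: uucaaguaauucaggauaggUUA

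Counted from 1 at the 5′ end, the 22-nt form of miR-26b differs from that of miR-26a at C11U and C21U, the miR-26a base first. Position 11 lies inside every read that begins at the usual first base, so the assignment of those reads does not rest on the ends. Reads with the miR-26b base at position 11 and the miR-26a end made up 0.0963% to 0.328% of miR-26b-5p, and the converse 0.00273% to 0.0153% of miR-26a-5p.

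miR-26a-5p was one of the abundant miRNAs of BMMs in both groups, and LPS did not move it beyond the spread between replicates. Its reads numbered 65506, 36586 and 58640 over control replicates 1 to 3 and 80166, 208598 and 36461 over LPS replicates 1 to 3. In RPM this was 25642, 21379 and 24824 in the control samples and 25324, 19114 and 24367 in the LPS samples. The ranges of the groups overlapped, and the lowest value was that of LPS replicate 2. In such bulk RNA, fewer cells of a type and less RNA per cell cannot be told apart. The control mean was 23948 ± 2262 (SD, n = 3) and the LPS mean 22935 ± 3343 (SD, n = 3).

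miR-26b-5p, the other carrier of the seed, was lower in every sample. It had 9464, 7186 and 13345 reads in the control samples and 11750, 78881 and 9075 reads in LPS replicates 1, 2 and 3. In RPM this was 3705, 4199 and 5649 in the control samples, with a mean of 4518 ± 1011 (SD, n = 3), and 3712, 7228 and 6065 with LPS, with a mean of 5668 ± 1791 (SD, n = 3). Replicate 1 was the lowest sample of both groups, the groups overlapped, and LPS replicate 2 was the highest sample.

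The 3p arms, the strands that are mostly discarded when the duplex is unwound, were far lower. miR-26b-3p held 48.1, 63.1 and 71.5 RPM in the control samples and 50.2, 108 and 65.5 in LPS replicates 1, 2 and 3. Only LPS replicate 2 lay above the control range. miR-26a-2-3p was at 5.48, 5.26 and 7.20 RPM in the control samples and 6.95, 5.13 and 10.02 in the LPS samples, from 9 to 56 reads a sample, and the groups overlapped. miR-26a-1-3p had 1, 0 and 0 reads in the control samples and 0, 19 and 3 in the LPS samples. A count of 0 allows up to 1.75 RPM in control replicate 2, 1.27 in control replicate 3 and 0.948 in LPS replicate 1, so no difference was detectable for this arm at this depth. The group means, 0.1305 and 1.25 RPM, gave a two-sided exact permutation p of 0.4 (n = 3 each). The arm failed the low-count filter and so was not in the main fit, while edgeR without that filter put its log2 fold change at 2.79 (adjusted p = 0.900), an estimate that rests on 1 read in the control samples.

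**Figure D1:**
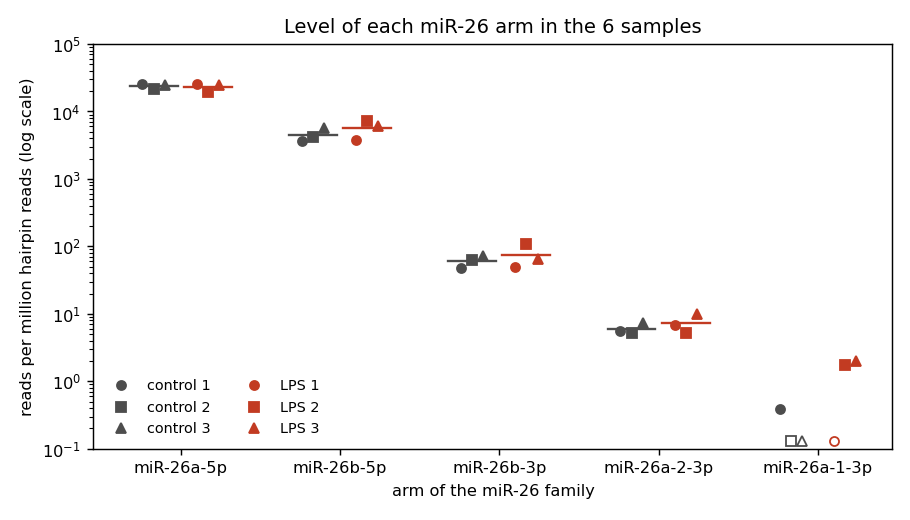
Level of the 5 arms of the miR-26 family, in RPM on a log axis, in the 3 control samples (grey) and the 3 LPS samples (red). Each point is 1 sample, circles, squares and triangles are replicates 1, 2 and 3, lines are group means, and open symbols at the foot of the axis mark 0 reads. The groups overlap for each arm, and miR-26a-5p lies between 19114 and 25642 in all 6 samples.

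By mean RPM, miR-26a-5p was 10th of 964 arms and between 8th and 11th in each sample. Its neighbours in that order were Mir142-5p above (mean 24053, range 18131 to 27110) and Mir30d-5p below (mean 23353, range 21218 to 25044), and neither stood apart from miR-26a-5p beyond the spread over samples. miR-26b-5p was 28th, between 22nd and 32nd in a sample, with Mir125a-5p above it (mean 5185) and the 3p arm of Mir103-1 and Mir103-2 below it (mean 5020). These neighbours too overlapped with it. miR-26b-3p was 154th, miR-26a-2-3p 290th and miR-26a-1-3p 498th. The orders compare reads, and small RNAs differ in how well adaptors join to them, so the order of reads need not be that of molecules.

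The comparison of LPS with control used edgeR's quasi-likelihood test over the 318 arms that passed its low-count filter, 4 of them from this family. No arm of the family was called, and none was called among all arms (0% of 318 at an adjusted p under 0.05). The 8 arms with an unadjusted p under 0.05 were 2.52% of those tested, and no miR-26 arm was among them. DESeq2 and limma-voom called 0 arms as well, with 4 and 5 arms at an unadjusted p under 0.05. For miR-26a-5p edgeR gave a log2 fold change of -0.08 with a standard error of 0.16 and an adjusted p of 0.999. For miR-26b-5p it gave 0.31 with a standard error of 0.25, and for miR-26b-3p 0.28 with one of 0.31, at the same adjusted p. For miR-26a-2-3p the estimate was 0.20, at an unadjusted p of 0.92 in edgeR. The sample values of the groups did not overlap in 10 of 318 arms (3.14%), 5 of them higher with LPS (1.57%) and 5 lower (1.57%), and overlapped in all 4 tested miR-26 arms.

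The positive values of the miR-26b arms rested on LPS replicate 2. Without it, the log2 fold change was 0.06 for miR-26b-5p, -0.13 for miR-26b-3p and 0.01 for miR-26a-5p, while miR-26a-2-3p went to 0.41. Leaving out LPS replicate 1 moved miR-26b-5p the other way, to 0.53 (unadjusted p = 0.0330, adjusted p = 0.393 in edgeR). In that fit 34 of 329 arms were higher and 7 lower at an unadjusted p under 0.05, so such a p was common there. The replicate number as a block gave -0.09 for miR-26a-5p and 0.27 for miR-26b-5p, where edgeR's adjusted p was 0.873 for both.

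**Figure D2:**
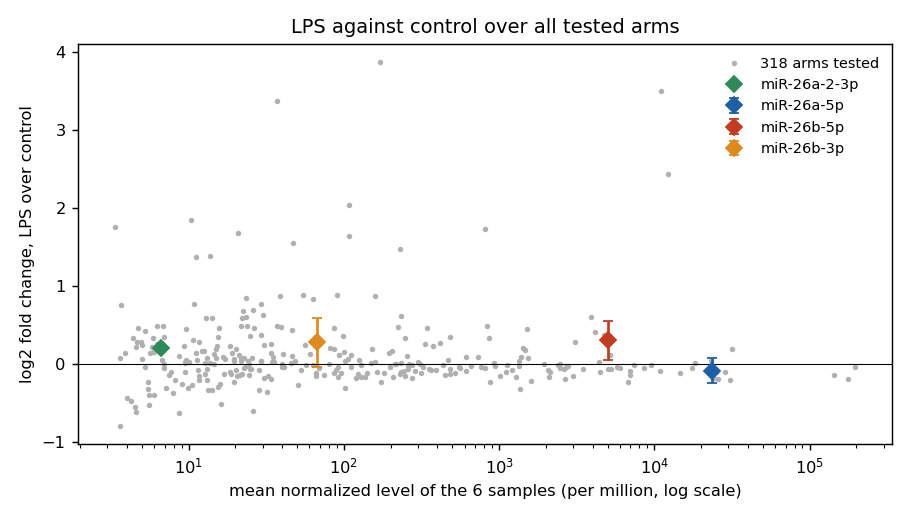
Log2 fold change of LPS over control against the mean normalized level of the 6 samples (log axis) for the 318 arms tested (grey points). Coloured diamonds are the 4 tested miR-26 arms, with bars of 1 standard error where one could be computed, and all 4 lie between -0.08 and 0.31, with none of the 318 arms called.

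The mix of the paralogs varied more than the level of the family. Summed over both 5p arms, the control samples held 28466 ± 2564 RPM (SD, n = 3) and those with LPS 28603 ± 2079 (SD, n = 3), a difference of 137 (two-sided exact permutation p = 1). The share of miR-26b among these reads was 12.6%, 16.4% and 18.5% in control replicates 1, 2 and 3 and 12.8%, 27.4% and 19.9% in LPS replicates 1, 2 and 3. Each share is known from 43772 to 287479 reads, and its 95% Wilson interval is at most 0.734 percentage points wide. The spread between samples was wider than these intervals, and the groups overlapped. The means were 15.9% ± 3.00 (SD, n = 3) and 20.1% ± 7.33 (SD, n = 3), a difference of 4.19 percentage points (two-sided exact permutation p = 0.4, 0.8 after adjustment over 8 shares). With 3 samples against 3, no p below 0.1 can be reached, and read intervals cover counting error only. The miR-26b share was higher with LPS in 3 of 3 pairs of equal replicate number (exact sign-flip permutation p = 0.25, the smallest that 3 pairs allow), and without LPS replicate 2 the difference between the means was 0.497 percentage points. As a ratio, miR-26a-5p outnumbered miR-26b-5p by 6.92, 5.09 and 4.39 in the control samples and by 6.82, 2.64 and 4.02 in the LPS samples.

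**Figure D3:**
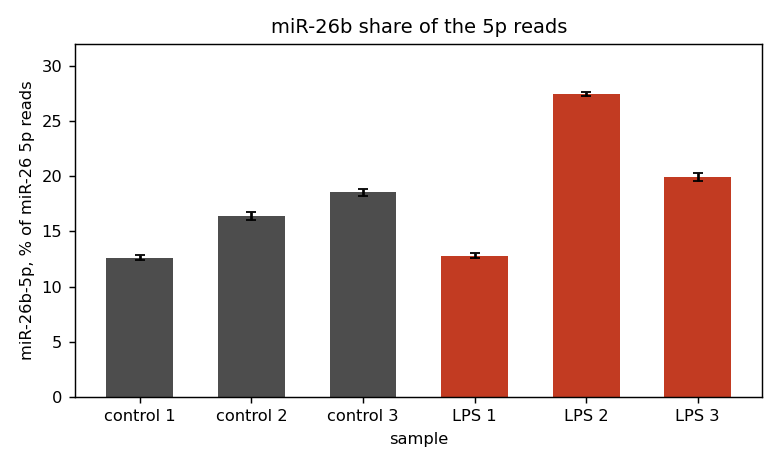
Share of miR-26b-5p among all miR-26 5p reads, in percent, in each control (grey) and LPS (red) sample. Bars start at 0 and the whiskers are 95% Wilson intervals, which cover counting error only. LPS replicate 2, at 27.4%, is the highest, and the other 5 samples run from 12.6% to 19.9%.

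miR-26a and miR-26b also moved apart from sample to sample. On the log2 scale, normalized and centred on the mean of the 6 samples, miR-26a-5p was at 0.21, -0.09 and 0.02 in the control samples and 0.16, -0.29 and -0.01 in the LPS samples. miR-26b-5p was at -0.34, -0.20 and 0.12 and at -0.36, 0.54 and 0.23. The signs were opposed in 4 of 6 samples, the exceptions being control replicates 2 and 3. The root mean square distance between these profiles was 0.48. Of the 137 arms outside the family with a mean of 100 RPM or more, 117 lay closer to miR-26a-5p than miR-26b-5p did. Seen from miR-26b-5p, 94 of the 137 lay closer than miR-26a-5p did. Without LPS replicate 2 the distance was 0.32, and 118 of the 137 lay closer to miR-26a-5p and 96 to miR-26b-5p. The profiles most like miR-26a-5p were those of Mir361-3p (distance 0.05), Mir148b-3p (0.06) and the shared 5p arm of Mir1843a and Mir1843b (0.06), against a median distance of 0.23. Those most like miR-26b-5p were Mir17-5p (0.09), Mir18-5p (0.10) and the 5p arm of Mir16-1 and Mir16-2 (0.11), against a median of 0.38. Without LPS replicate 2, 2 of the 3 closest arms of miR-26a-5p and 1 of the 3 of miR-26b-5p (Mir17-5p) stayed among the closest 3. All profiles share the same 6 libraries, so these distances are a description.

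The 3p arms tell the 2 miR-26a hairpins apart, and Mir26a-2 gave most of their reads. It supplied 14 of 15, 9 of 9 and 17 of 17 miR-26a 3p reads in the control samples and 22 of 22, 56 of 75 and 15 of 18 in LPS replicates 1, 2 and 3. The lowest share, 74.7% in LPS replicate 2, has a 95% Wilson interval from 63.8% to 83.1%, and the interval of the 83.3% in LPS replicate 3 runs from 60.8% to 94.2%. The group means were 97.8% ± 3.85 (SD, n = 3) and 86.0% ± 12.9 (SD, n = 3; two-sided exact permutation p = 0.4), a difference of -11.8 percentage points, or -6.11 without LPS replicate 2. The 3p share says which hairpin left a 3p strand behind and not how much of miR-26a-5p each hairpin made.

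The share of 3p strands itself differed between the paralogs. For Mir26b, 3p reads made up 1.28%, 1.48% and 1.25% of the reads of the hairpin in the control samples and 1.34%, 1.47% and 1.07% in the LPS samples. For the miR-26a hairpins together the share was 0.0229%, 0.0246% and 0.0290% in the control samples and 0.0274%, 0.0359% and 0.0493% in the LPS samples. Every Mir26b value lay above every miR-26a value, with means over the 6 samples of 1.31% ± 0.153 (SD, n = 6) and 0.0315% ± 0.00983 (SD, n = 6; two-sided exact sign-flip permutation p = 0.03125, the smallest that 6 samples allow, and 0.0521 adjusted over 5 comparisons of the paralogs). These 5 comparisons were chosen after the values had been seen, and each treats the 6 samples as independent. For the family as a whole the 3p share was 0.236% ± 0.0455 (SD, n = 3) in the control and 0.294% ± 0.123 (SD, n = 3) in the LPS samples (two-sided exact permutation p = 0.6), and the difference went from 0.0584 to -0.0107 percentage points without LPS replicate 2.

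In miR-26a-5p the templated part ended at a single place in most reads. Of the reads that began at its usual first base, 94.9% ± 0.320 (SD, n = 3) in the control and 93.7% ± 2.01 (SD, n = 3) in the LPS samples matched the hairpin over 22 nt, a difference of -1.15 percentage points, or -0.00959 without LPS replicate 2. The untailed 22-nt read, which is the RefSeq form, was 84.8%, 85.2% and 83.9% of miR-26a-5p in the control samples and 85.0%, 81.4% and 83.6% in LPS replicates 1, 2 and 3. The difference between the means was -1.31 percentage points (two-sided exact permutation p = 0.3, 0.8 adjusted over 8 shares), or -0.334 without LPS replicate 2. The untailed 21-nt read held 2.90% to 3.51% of the arm in each sample. Among 70 arms with at least 1000 reads in every sample, the commonest read made up a median of 55.5% of its arm, and only 6 arms had a higher value than miR-26a-5p (84.0%).

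For miR-26b-5p the RefSeq sequence of 21 nt was not the main read. It made up 6.604%, 7.32% and 7.92% of the arm in the control samples and 7.40%, 12.1% and 8.17% in LPS replicates 1, 2 and 3 (difference 1.94 percentage points, two-sided exact permutation p = 0.2, and 0.503 points without LPS replicate 2), and was higher with LPS in 3 of 3 pairs (exact sign-flip permutation p = 0.25). The main read was 1 base longer, and this further U is held by the hairpin, so it was counted as templated. A U added to the 21-nt form would give the same read and cannot be told apart from it. The same limit holds for miR-26a-5p, whose 22-nt form is its 21-nt form followed by U. The 22-nt form was 70.9%, 72.5% and 72.8% of miR-26b-5p in the control samples and 70.6%, 69.6% and 72.6% in the LPS samples. It was less dominant than the 22-nt form of miR-26a in 6 of 6 samples, with means of 71.5% ± 1.32 and 84.0% ± 1.43 (SD, n = 6; two-sided exact sign-flip permutation p = 0.03125, 0.0521 adjusted over 5 comparisons).

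A shortened miR-26a-5p of 20 nt, lacking the last bases CU, was seen in strength in a single sample. It had 91, 53 and 97 reads in the control samples, 84 in LPS replicate 1, 82 in LPS replicate 3 and 7651 in LPS replicate 2. As a share of miR-26a-5p this was 0.139%, 0.145% and 0.165%, then 0.105% and 0.225%, and 3.67% in LPS replicate 2. The 20-nt form of miR-26b-5p did not show this, with 1.36% to 2.37% in the control samples, 2.31% and 1.64% in LPS replicates 1 and 3 and 1.76% in LPS replicate 2. Over all samples the 20-nt share was 0.741% ± 1.43 for miR-26a-5p and 1.86% ± 0.395 for miR-26b-5p (SD, n = 6; two-sided exact sign-flip permutation p = 0.156). Over 571 sequences of the 70 abundant arms, each at least 1% of its arm in some sample, 4 were at least 10 times as frequent in their arm in LPS replicate 2 as in any other sample, and 0 in each of the other 5 samples. The 4 were this read and one each from Mir140-3p (20.2% against at most 1.29%), Mir15a-5p (4.08% against 0.394%) and Mir125b-2-3p (2.34% against 0.213%). This search was made after the 20-nt read had been seen.

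**Figure D4:**
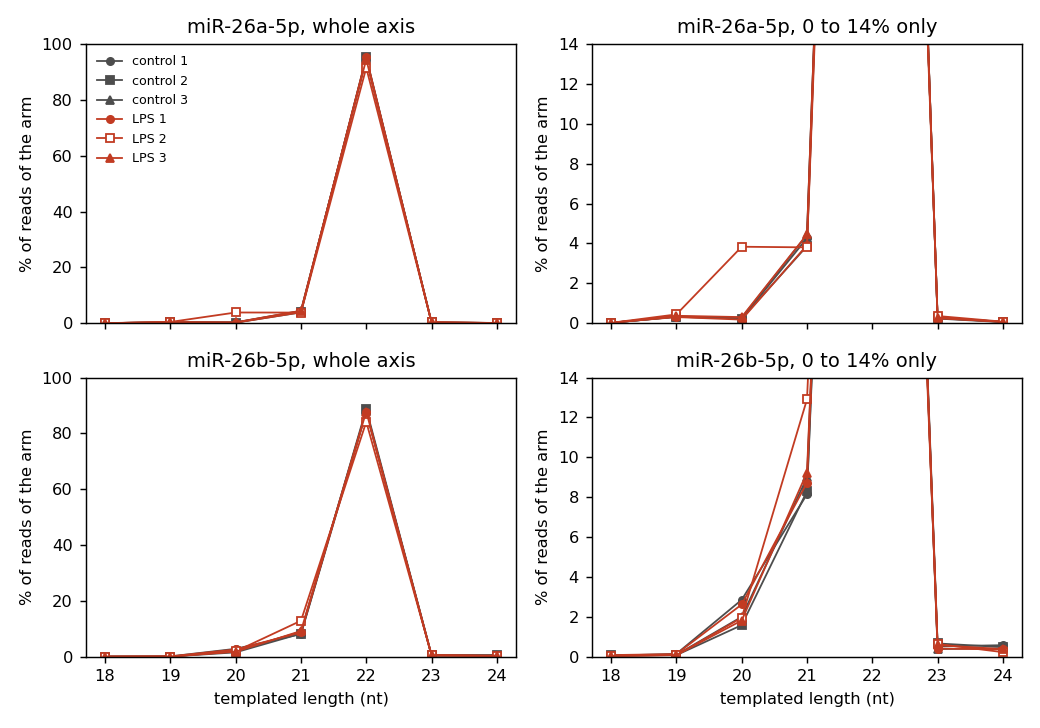
Length of the part of each read that matches the hairpin, as percent of the reads of miR-26a-5p (top) and miR-26b-5p (bottom) that begin at the usual first base, for each control (grey) and LPS (red) sample. The right panels show the same lines from 0 to 14% only. All samples peak at 22 nt, and LPS replicate 2 (open squares) stands out at 20 nt for miR-26a-5p (3.83%) and at 21 nt for miR-26b-5p (12.9%).

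Among 58 family shares, some repeats or parts of others, the groups failed to overlap only for reads of miR-26b-5p templated over 24 nt. They were 0.582%, 0.487% and 0.420% in the control samples and 0.375%, 0.232% and 0.386% in LPS replicates 1, 2 and 3, from 35 to 183 reads a sample, and lower with LPS in 3 of 3 pairs. The difference was -0.166 percentage points (two-sided exact permutation p = 0.1, the smallest possible here, not adjusted over the 58), or -0.116 without LPS replicate 2, and it was picked out after the values were seen.

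Bases added after transcription can be seen only as 3′ tails that the hairpin does not hold. Tails of 1 to 3 such bases were on 11.3%, 10.6% and 11.5% of miR-26a-5p reads in the control samples and on 11.03%, 10.6% and 12.03% in LPS replicates 1, 2 and 3. The groups overlapped, with means of 11.2% ± 0.449 and 11.2% ± 0.730 (SD, n = 3 each; two-sided exact permutation p = 1). miR-26b-5p carried tails on 18.9%, 17.5% and 16.7% of its reads in the control samples and on 18.7%, 15.6% and 16.5% in the LPS samples. Here too the groups overlapped, with means of 17.7% ± 1.13 and 16.9% ± 1.61 (SD, n = 3 each; two-sided exact permutation p = 0.5, 0.8 adjusted over 8 shares). The tail share of miR-26b-5p was lower with LPS in 3 of 3 pairs (exact sign-flip permutation p = 0.25), and the difference of -0.758 percentage points became -0.0879 without LPS replicate 2. The median over the 70 abundant arms was 13.7%, so the miR-26 arms lie to either side of it.

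The paralogs differed in the base that was added. To compare them at the same place, tails were read on reads whose templated part ended at position 22, where the next hairpin base is G in all 3 hairpins and an added U, A or C is equally visible. U-tails, those whose first base is U, were on 7.90%, 7.66% and 8.25% of such miR-26a-5p reads in the control samples and on 8.01%, 7.62% and 8.66% in the LPS samples. On miR-26b-5p they were at 8.29%, 7.72% and 7.95% in the control samples and at 8.76%, 7.51% and 7.95% in the LPS samples. The means over all samples, 8.02% ± 0.392 and 8.03% ± 0.442 (SD, n = 6), differed by -0.01 percentage points, and the difference ran from -0.751 to 0.716 over the samples, with miR-26a higher in 3 of 6 (two-sided exact sign-flip permutation p = 0.938).

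A-tails were more frequent on miR-26b-5p in every sample. They were on 2.14%, 2.36% and 2.43% of these miR-26a-5p reads in the control samples and on 2.15%, 2.86% and 2.44% in LPS replicates 1, 2 and 3. On miR-26b-5p they were on 10.4%, 10.3% and 9.10% in the control samples and on 10.4%, 9.54% and 9.11% in the LPS samples. No value of miR-26a came near the range of miR-26b. The means were 2.39% ± 0.262 and 9.80% ± 0.626 (SD, n = 6), a difference of -7.41 percentage points, between -8.24 and -6.66 in each sample (two-sided exact sign-flip permutation p = 0.03125, 0.0521 adjusted over 5 comparisons). U-tails outnumbered A-tails on miR-26a-5p by 3.38 ± 0.394 (SD, n = 6), while on miR-26b-5p the ratio was 0.821 ± 0.0513 (SD, n = 6). Tails beginning with C were on 0.162% to 0.410% of the reads of either arm.

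**Figure D5:**
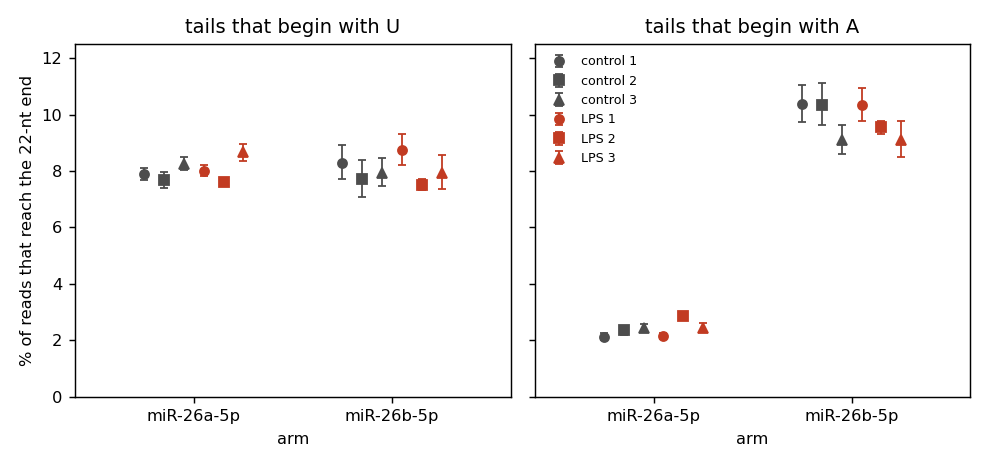
Percent of the reads templated to position 22 that carry a tail beginning with U (left) or with A (right), for miR-26a-5p and miR-26b-5p in each control (grey) and LPS (red) sample. Points are samples (circle, square and triangle for replicates 1, 2 and 3) and bars are 95% Wilson intervals. The U-tails of both arms lie between 7.51% and 8.76%, while the A-tails lie between 2.14% and 2.86% for miR-26a-5p and between 9.10% and 10.4% for miR-26b-5p.

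Most tails were single bases. On the 22-nt end of miR-26a-5p, 8.25% ± 0.367 of the control reads and 8.44% ± 0.332 of the LPS reads (SD, n = 3 each) had a tail of 1 base, 1.88% and 1.95% a tail of 2 bases and 0.357% and 0.402% a tail of 3. On miR-26b-5p a single base was on 16.8% ± 0.704 and 16.6% ± 1.13 (SD, n = 3 each), 2 bases on 1.23% and 1.21%, and 3 bases on 0.154% and 0.1405%. Single-U reads were 6.76% of this end of miR-26a-5p in the control and 6.92% in the LPS samples, and single-A reads of miR-26b-5p were 9.06% and 8.88%. Over all 3′ ends, A-tails were on 9.72% of miR-26b-5p, with 17 of the 70 abundant arms higher, and on 2.97% of miR-26a-5p, with 41 higher, around a median of 4.94%. U-tails were on 7.64% of miR-26a-5p and 7.05% of miR-26b-5p, above the median of 5.25%.

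The 5′ ends, which set the seed, hardly varied. Reads of miR-26a-5p that began at another base were 0.334%, 0.350% and 0.380% of the arm in the control samples and 0.332%, 0.430% and 0.310% in LPS replicates 1, 2 and 3 (two-sided exact permutation p = 1). Most began 1 base later, at 0.306% of the arm in the control and 0.300% in the LPS samples. For miR-26b-5p the shifted share was 0.0661% to 0.148%, from 6 to 66 reads a sample. The median over the 70 abundant arms was 0.919%, and 47 of them were higher than miR-26a-5p and 64 higher than miR-26b-5p.

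Other miRNAs known for the targets of this family were not called either. Of the 4 arms tied to Ezh2 (miR-101a-3p, miR-101b-3p, miR-138-5p and miR-214-3p), 3 were tested, 0 rose and 0 fell, and their log2 fold changes ran from -0.05 to 0.10 around a median of -0.03, which was 0.08 without LPS replicate 2. Of the arms tied to Il6, let-7a-5p was tested, at -0.09, and miR-365-3p failed the count filter. Of 7 miRNAs known to respond to LPS in macrophages (miR-155-5p, miR-146a-5p, miR-146b-5p, miR-132-3p, miR-212-3p, miR-147-3p and miR-21a-5p), 0 of 7 rose or fell in edgeR's test. Their median log2 fold change was 0.68, against 0.01 over all 318 arms, and 0.04 without LPS replicate 2.

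As a description of where the 5p seed can pair, the 3′ UTRs of 14 genes were searched for the 7-base matches TACTTGA (the complement of bases 2 to 8) and ACTTGAA (bases 2 to 7 and an A), which overlap in the 8-base match TACTTGAA, on the transcript strand only. Of 20927 annotated 3′ UTRs, 17.3% held a 7-base match and 4.004% the 8-base match. Of the 14 genes, 9 held a match and 5 the 8-base one. The sites of Ezh2, Il6 and Hmga1, genes known as targets of miR-26, are shown. Of the 2 sites of Ctdsp2, a host gene, only the first is shown. The match is in capitals and the GRCm38 coordinates are those of the match:
Ezh2, chr6:47530286-47530293, minus strand: ataaagaaTACTTGAActtg
Il6, chr5:30019763-30019769, plus strand: gaagtgtcACTTGAAatgt
Hmga1, chr17:27563637-27563644, plus strand: tttgcagtTACTTGAAtaaa
Ctdsp2, chr10:126997566-126997572, plus strand: gttgctctTACTTGAtttg

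Ezh2 held 1 match in a 3′ UTR of 402 nt, and 1.56% of 964 UTRs of like length held the 8-base match. Il6 held 1 match in 427 nt, where 7.22% of UTRs of like length held a 7-base match. Longer UTRs hold such matches more often. Gsk3b and Tet2 held 3 matches each, where 60.9% and 38.2% of UTRs of like length held at least 1 match of 7 bases. Ctdsp2, Hmga2 and Smad1 held 2 each, where the shares were 41.6%, 36.3% and 19.1%. Hmga1 held 1, where it was 17.3%. Of the genes the study examined, Scarb1 and Irak3 held 0 matches and Smad4 held 1 of 7 bases. Ctdsp1, Ctdspl and Tut4 held 0. No mRNA was measured in these samples, so the matches carry no value for LPS against control.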

How the data were processed

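Small RNAs of 6 samples of BMMs were read by sequencing (3 control, 3 LPS). Libraries were made by the authors with the TruSeq small RNA kit and run on a HiSeq 1000, and adaptors were removed by perl scripts and Btrim64. The values the authors deposited are raw counts of each distinct trimmed read of 11 to 40 nt, without miRNA names or normalization. The labels name mm9 as genome build, but the reads carry no positions. A read was assigned when 18 nt or more from its start were identical to 1 of 1174 hairpins of GENCODE M21 (GRCm38) and no more than 3 bases at its 3′ end were left over. Arms were set by the hairpin midpoint, arms sharing at least 50% of their reads were merged, and a read that fitted several arms was given to the arm with the most unique reads. Assignment was tested on simulated reads and the fit on simulated counts. PCR copies were not collapsed, since the reads hold no molecular identifiers, and intervals cover counting error only.

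The fit used edgeR 4.0.16 in R 4.3.3, with filterByExpr, TMM scaling, the quasi-likelihood test and Benjamini-Hochberg adjustment at a threshold of 0.05. Standard errors are the fold change on the log2 scale over the root of F. Shares were compared by exact permutation tests. Other settings tried were limma-voom (limma 3.58.1), DESeq2 1.42.0, other scalings and count filters, exact matches, reads of 20 nt or more, the replicate number as a block and each sample left out. The replicate numbers come from the labels. Deviations from the group means correlated at 0.594, 0.258 and 0.282 across arms for equal numbers and between -0.392 and 0.155 for different ones. The numbers were therefore taken as pairs in the replicate block and in the sign-flip tests of LPS against control. The labels do not state such pairs, and the correlations come from these same data. For pair 2 the 0.258 was little above the 0.155 of control replicate 3 with LPS replicate 2. The paired results therefore rest on an assumed pairing. The main fit and the permutation tests compared the groups without pairs. The text names all arms of the family, the 3 arms of most similar profile, the neighbours in level, arms of the same seed and fixed lists. Beyond the 14 genes of the 3′ UTR search, 1 further gene listed for it is not reported here. The members and lists were chosen with earlier results of these data known, and a matched part of 15 nt, the block without pair 2 and the profile distance without LPS replicate 2 were added after the data were seen.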

Additional observations from a re-analysis of the deposited data

How the results depend on the processing

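Of 200 recomputed values of 16 results, 182 kept their direction and side of the threshold. For the 8 shares and the summed 5p level the side could not change. Their permutation p cannot fall below 0.1, nor the sign-flip p over 3 pairs below 0.25. The replicate block also leaves each share difference as it was by construction, so the 182 are no measure of robustness for these results. No arm of the family passed the adjusted threshold in any fit. Without a count filter 20 of 964 arms were higher with LPS and 0 lower, none of them from this family. That setting also tests the arms that the low-count filter removes. The replicate block gave log2 fold changes of -0.09 for miR-26a-5p, 0.27 for miR-26b-5p, 0.22 for miR-26b-3p and 0.24 for miR-26a-2-3p and changed no call, and the paired sign-flip test gave no p under 0.25 for any of the 8 shares, the smallest it allows. With the block and without pair 2, miR-26b-3p went to -0.0299. Single-base tails alone turned the tail difference of miR-26a-5p to -0.021 percentage points, exact matches alone turned that of shifted starts to -0.00741 points, per 1000000 reads of 18 nt or more the summed 5p level differed by -814, and 5 of the 14 genes searched held the 8-base match. The cause of these changes was not tested.

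With each sample left out in turn, the log2 fold change ranged from -0.183 to 0.0173 for miR-26a-5p, 0.06 to 0.53 for miR-26b-5p, -0.13 to 0.49 for miR-26b-3p and 0.00235 to 0.41 for miR-26a-2-3p. The summed 5p level differed by -1307 to 1268 RPM. Differences in shares, in percentage points, ran from 0.497 to 7.82 for miR-26b among 5p reads, -18.8 to -6.11 for Mir26a-2 among 3p reads, -0.335 to 0.375 for tails of miR-26a-5p and -1.65 to -0.0879 for those of miR-26b-5p. They ran from -2.16 to -0.334 for the RefSeq form of miR-26a-5p, 0.503 to 2.85 for that of miR-26b-5p, -0.0340 to 0.0261 for shifted starts and -0.0107 to 0.107 for the 3p share. Directions turned without control replicate 1 or LPS replicate 2 for miR-26a-5p, without LPS replicate 2 for miR-26b-3p and the 3p share, without control replicate 2 or LPS replicate 3 for tails of miR-26a-5p, without control replicate 1 or 2 or LPS replicate 2 for shifted starts, and without control replicate 2 or LPS replicate 1 or 3 for the summed level. The 3p arms of miR-26a, with at most 75 reads a sample, are limited by depth. Upper-quartile scaling moved the median of all arms from 0.01 to -0.08.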
